A study of Homo sapiens with 5 samples.

Results

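K562, a line established from a patient with chronic myeloid leukemia in blast crisis and used as a model of erythroid precursors, was 1 of the 5 hematopoietic cell lines whose total RNA was measured on the nCounter platform. This platform counts a color-coded probe for each miRNA without amplification. K562 was set against each of the other 4 lines, which were Meg01 (Meg-01, megakaryoblastic, also from a chronic myeloid leukemia), Jurkat (T lymphoblastic), Raji (B lymphoblastic, from a Burkitt lymphoma) and U937 (monocytic). The labels give no treatment for any line, and all were extracted with Trizol and entered the assay at 100 ng of total RNA, with 1 sample per line. The comparison covered 186 of the 654 human miRNAs on the panel, namely those above background in K562 (180 miRNAs) or in all 4 of the other lines (94 miRNAs).

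Because each line is a single sample, no difference was tested and no p-value is given. Intervals are 95%, exact Poisson for a count, conditional binomial for a ratio and exact binomial for a share, and they cover counting error only, not the spread between cultures, RNA preparations or lanes. Raw counts were multiplied by 1 scaling factor per line, which was 1.22 in K562, and these scaled values are called normalized counts. A miRNA was above background when its normalized count was higher than the average of the 8 negative control probes of its line by over 2 SD, a threshold that was 42.3 in K562 and 28.2 to 72.4 in the other lines. A miRNA was called different when it was at least 2-fold higher or lower, with a line below its background threshold entered at that threshold. A miRNA that entered through K562 alone is high in K562 by construction. Established lines are transformed cells, and lineage, disease of origin and long culture cannot be told apart in a difference between 2 lines.

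miRNAs are short RNAs that guide Argonaute proteins to messenger RNAs, mostly through the seed, bases 2 to 8 of the mature strand, so miRNAs with the same seed are treated as a family. In blood cells, miR-144, miR-451 and miR-486 accumulate in erythroid precursors, miR-126 in progenitors and megakaryocytic cells and miR-10a in progenitors. miR-223 accumulates in myeloid cells, miR-142 in nearly all leukocytes and miR-150, miR-181 and miR-342 in lymphoid cells. The miR-17-92 cluster is a target of MYC that favors proliferation, and the let-7 family, kept low by LIN28 in embryonic and some transformed cells, holds back growth genes.

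The mature sequences of 2 families carry the contrast that follows, and they are printed with the seed in capitals, 5′ to 3′, from RefSeq (GRCh38.p14). The let-7 members share 1 seed, and each of the members shown differs from let-7a at 1 to 4 of 22 bases.
let-7a: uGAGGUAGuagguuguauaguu
let-7d: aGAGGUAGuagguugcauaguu
let-7e: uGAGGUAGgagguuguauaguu
let-7f: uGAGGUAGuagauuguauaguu
let-7g: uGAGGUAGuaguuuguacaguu
let-7i: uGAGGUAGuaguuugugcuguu
The miR-17-92 cluster, at chr13:91350605-91351391 on the plus strand within the gene MIR17HG, encodes 6 miRNAs with 4 seeds, of which 1 example per seed is shown.
miR-20a: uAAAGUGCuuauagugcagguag
miR-18a: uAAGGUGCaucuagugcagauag
miR-19b: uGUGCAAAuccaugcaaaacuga
miR-92a: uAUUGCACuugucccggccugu

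The profile of K562 was led by probes for the miR-17-92 cluster and its paralogues and by miR-720, a small RNA that was later reassigned to a tRNA fragment. In raw counts, miR-92a had 22639 in K562 against 15661 in Meg01, 14415 in Jurkat, 8533 in Raji and 15133 in U937. The joint probe for miR-20a and miR-20b had 10678 in K562 and 5882, 6179, 3201 and 7475 in the other lines, in the same order. K562 was the highest line for both. Of the counts in miRNAs above background, the top 3 held 47.8% in K562 and 37.4% to 44.5% in the other lines, and the top 10 held 73.7% against 63.9% to 68.7%.

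**Figure D1:**
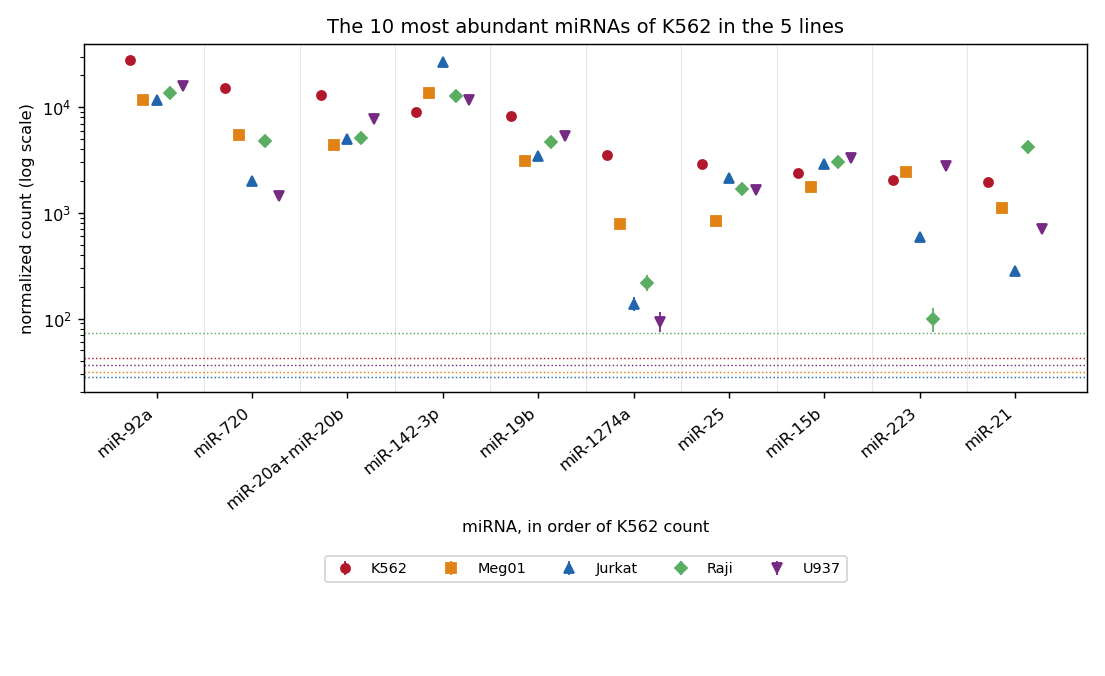
Normalized counts (log axis) of the 10 most abundant miRNAs of K562 in each of the 5 lines, 1 sample per line, with 95% Poisson intervals where they exceed the symbol and each line's background threshold as a dotted line. K562 was the highest line for 6 of the 10 (miR-92a, miR-720, miR-20a+miR-20b, miR-19b, miR-1274a and miR-25) and the lowest for miR-142-3p.

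miR-142-3p, a marker of leukocytes, ranked 1 or 2 in each of the other lines and 4 in K562. Its raw count was 7436 in K562, 18315 in Meg01, 32907 in Jurkat, 8151 in Raji and 11271 in U937. The normalized count of K562, 9094, was below the 11760 to 26502 of the other lines, and the call was made against Jurkat, where it was 2.91-fold higher (2.84 to 2.99). Other scalings raised the ratio to as much as 2.46 in Meg01 and 2.05 in U937, past the limit of a call. Its other arm, miR-142-5p, was likewise lowest in K562, with 269 normalized counts against 310 to 792. Both arms stayed below all 4 other lines under each of 5 scalings, including none. miR-223, the third probe of the pan-leukocyte group, did not share this order. It had 1684 raw counts in K562, 3269 in Meg01, 732 in Jurkat, 62 in Raji and 2682 in U937, and in normalized counts K562 was 3.49-fold above Jurkat (3.20 to 3.82) and 21.0-fold above Raji (16.3 to 27.6).

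**Figure D2:**
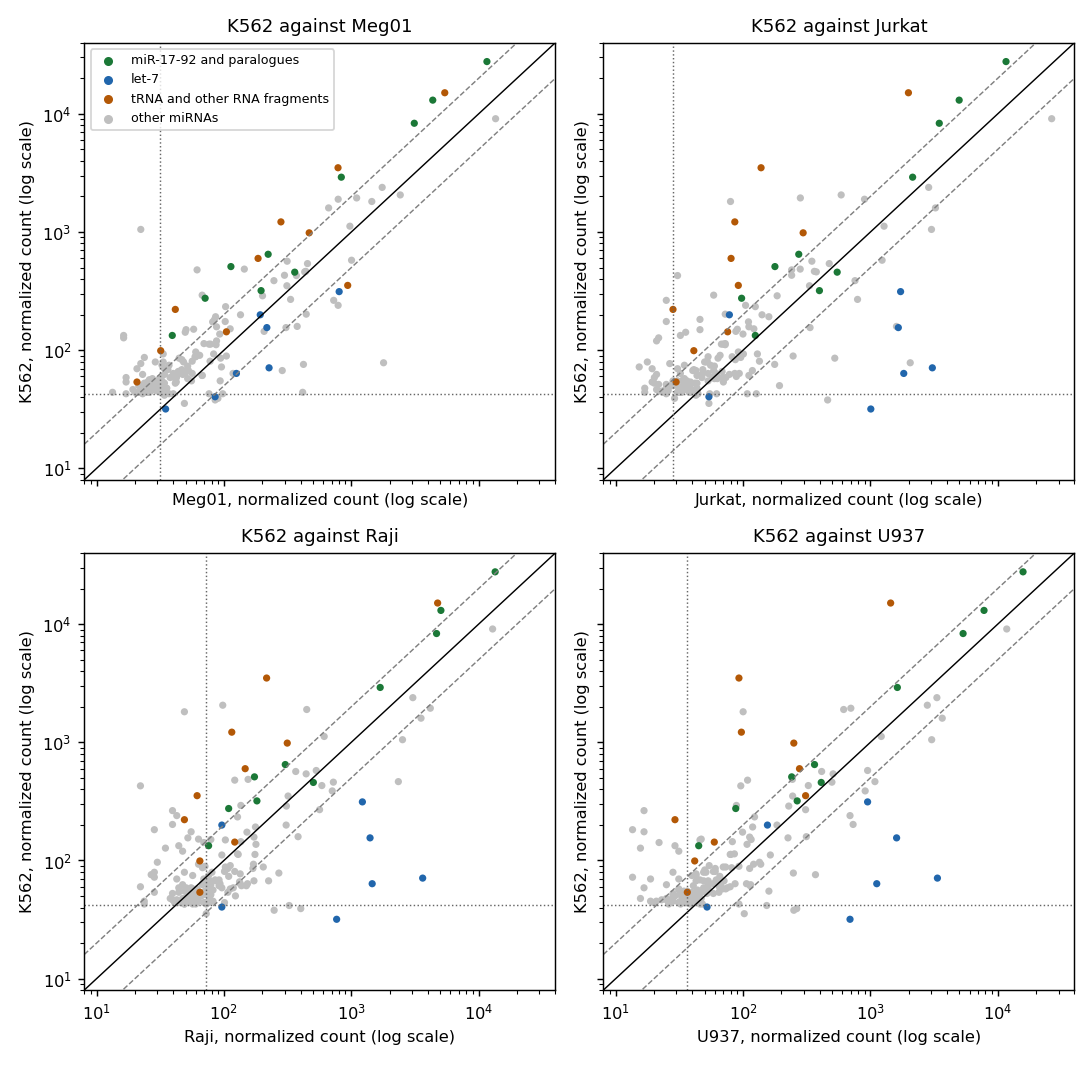
Normalized counts of the 186 miRNAs compared, K562 on the vertical and 1 other line on the horizontal axis of each panel (log axes). The solid line marks equal levels, the dashed lines 2-fold, and the dotted lines each line's background threshold. In the Jurkat, Raji and U937 panels let-7a, let-7d, let-7f, let-7g and let-7i lie below the lower dashed line, and most RNA fragments lie above the upper one in all 4 panels.

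Against Meg01, 39 of the 186 miRNAs were at least 2-fold higher in K562 (21.0%) and 15 were lower (8.06%). Against Jurkat the numbers were 39 higher (21.0%) and 20 lower (10.8%), against Raji 27 higher (14.5%) and 27 lower (14.5%), and against U937 27 higher (14.5%) and 19 lower (10.2%). For every one of these calls the interval of the normalized counts excluded a ratio of 1, and it lay wholly beyond 2-fold for 27, 30, 22 and 22 of the higher ones and for 9, 15, 14 and 17 of the lower ones. These intervals use counts as measured, also below background, where the ratio is larger than the one called with the threshold entered. The other line was below background in 7, 11, 11 and 9 of the higher calls. K562 was so in 3, 2, 5 and 5 of the lower ones. The split depended on the scaling. The median log2 ratio over the 186 miRNAs was 0.56 against Meg01, 0.51 against Jurkat, -0.40 against Raji and 0.33 against U937, and without scaling it was -0.17, -0.10, -0.03 and 0.10. Of the calls against Meg01, 72.2% were higher in K562, and 33.3% were so without scaling, 37.5% with scaling to the positive controls and 35.9% with scaling to the total count. Against Jurkat the share was 66.1%, and 40.8%, 40.8% and 54.7% in the same 3 settings. Against Raji it was 50.0%, and 77.6%, 76.0% and 27.8%. Against U937 it was 58.7%, and 52.2%, 32.7% and 47.8%. The numbers of calls are therefore given as a background for the families and not as a direction of K562 as a whole.

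Over the 88 miRNAs above background in all 5 lines, the log2 levels of K562 followed those of Meg01 most closely, with Pearson's r of 0.880 and Spearman's rho of 0.811. With U937 the values were 0.796 and 0.752, with Raji 0.741 and 0.654, and with Jurkat 0.722 and 0.695. These are correlations across miRNAs, which share their lanes and are not independent replicates.

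Only 11 of the 180 miRNAs above background in K562 were at least 2-fold higher than in all 4 other lines (6.11%), and 4 of the 94 miRNAs above background in all 4 others were at least 2-fold lower (4.26%). The 11 were miR-1274a, miR-1274b, miR-1974, miR-720, miR-18a, miR-151-5p, miR-1979, miR-10a, miR-19a, miR-1260 and miR-96, and the 4 were let-7g, miR-181a, let-7a and miR-9. Just outside were miR-130b, 1.99-fold above the nearest line, and miR-29c and let-7d, 1.98-fold and 1.97-fold below it. Of these 15 miRNAs, miR-1274a, miR-1274b, let-7g and miR-181a were also called under all 12 alternative settings, and let-7a and miR-1974 under 11 of the 12. miR-10a was called under 10 of them, miR-18a under 9, miR-720, miR-1979 and miR-9 under 8, miR-1260, miR-19a and miR-96 under 7 and miR-151-5p under 5. Leaving out Raji cannot remove a call, since fewer lines then have to be passed. All 15 also stayed called with the mean or highest negative control or a raw count of 30 as threshold. The tallies therefore include settings that removed none.

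**Figure D3:**
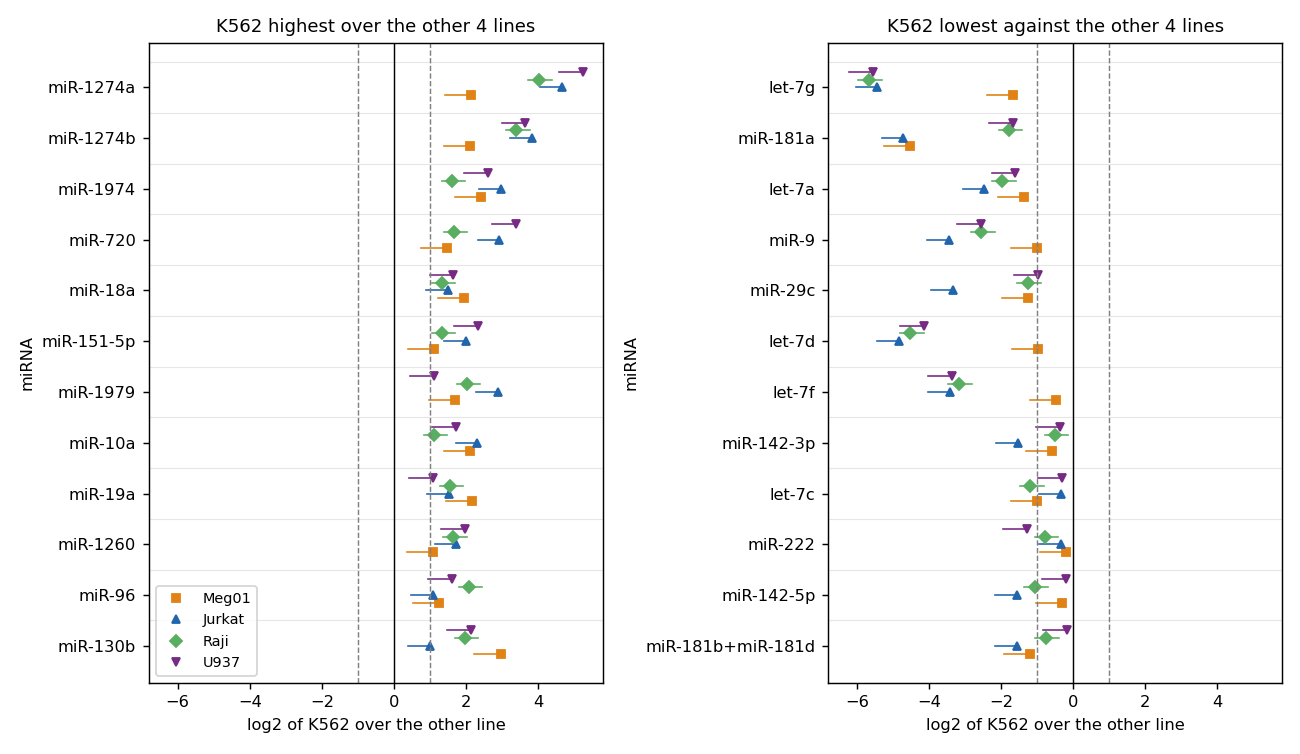
Log2 of K562 over each other line for the 12 miRNAs highest in K562 relative to the nearest line (left) and the 12 lowest (right), each line below background entered at its threshold. Points show the reported scaling, bars the range over 5 scalings including none, and dashed lines 2-fold. Every bar lies above 0 on the left and below 0 on the right. The miRNAs were picked by their ratio to the nearest line, so the side of the points follows from the selection. Settings other than scaling are not drawn. With subtraction and the deposited signal, let-7c, miR-222 and miR-181b+miR-181d changed sign over the lowest other line.

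The let-7 family was low in K562. Its 9 probes summed to 0.687% of the counts above background in K562 (0.636 to 0.741), against 2.31% in Meg01, 10.5% in Jurkat, 10.3% in Raji and 9.38% in U937. In raw counts let-7g, encoded at chr3:52268278-52268361 within WDR82, had 58 in K562 (95% interval 44.0 to 75.0) against 305 in Meg01, 3804 in Jurkat, 2302 in Raji and 3219 in U937. K562 was the lowest line and Meg01 the next, and the counts of the other 3 lines did not overlap with either. In normalized counts let-7g was 3.19-fold higher in Meg01 than in K562 (2.40 to 4.30), 43.2-fold in Jurkat, 51.2-fold in Raji and 47.4-fold in U937. It ranked 94 among the human miRNAs of K562, 45 in Meg01 and 6 or 7 in the other lines.

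let-7a had 256 raw counts in K562 and 1083, 2143, 774 and 911 in Meg01, Jurkat, Raji and U937. It was 2.56-fold higher in Meg01 (2.24 to 2.95), the line nearest to K562, and 5.51-fold higher in Jurkat (4.84 to 6.30), the farthest. let-7d and let-7f, which lie with let-7a-1 in 2964 bases at chr9:94175957-94178920 within MIRLET7A1HG, were also lowest in K562. let-7d had 52 raw counts against 169, 2269, 924 and 1075, and let-7f had 127 against 293, 2057, 889 and 1539. let-7i, with 26 raw counts, was below the background of K562 and had 47 in Meg01 against 486 to 1251 in the other lines. Whether K562 lay below Meg01 could not be told for let-7i, since K562 gives only a bound there.

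The exception was let-7e. Its raw count was 163 in K562, 260 in Meg01, 97 in Jurkat, 61 in Raji and 149 in U937, and in normalized counts K562 (199) was level with Meg01 (193), at a ratio of 1.03 (0.845 to 1.26), and 2.55-fold above Jurkat (1.97 to 3.32). That order depended on the scaling only against Meg01, where the log2 ratio ran from -0.67 to 0.05, and against U937, where it ran from -0.30 to 0.36. let-7e lies with miR-99b and miR-125a in 728 bases at chr19:51692612-51693339 within SPACA6, and miR-99b was above background in K562 and Meg01 alone, with 98 and 118 raw counts against 26 to 30. Of the 9 let-7 probes, 7 entered the comparison and 5 were above background in K562. None was called higher than Meg01 and 3 were lower, against Jurkat 1 was higher and 5 lower, against Raji 1 and 6, and against U937 0 and 5. The shares called lower among all 186 miRNAs were 8.06%, 10.8%, 14.5% and 10.2%, in the same line order. Without scaling, and with scaling to the positive controls or the total count, 5 of the let-7 probes were lower than in Meg01. The 1 higher call, let-7e, was lost against Jurkat without scaling and with the positive controls, down to 1.68-fold, and against Raji with the total count, at 1.70-fold. The probes of the family differ by few bases, and hybridization of 1 member to the probe of another was not tested here.

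**Figure D4:**
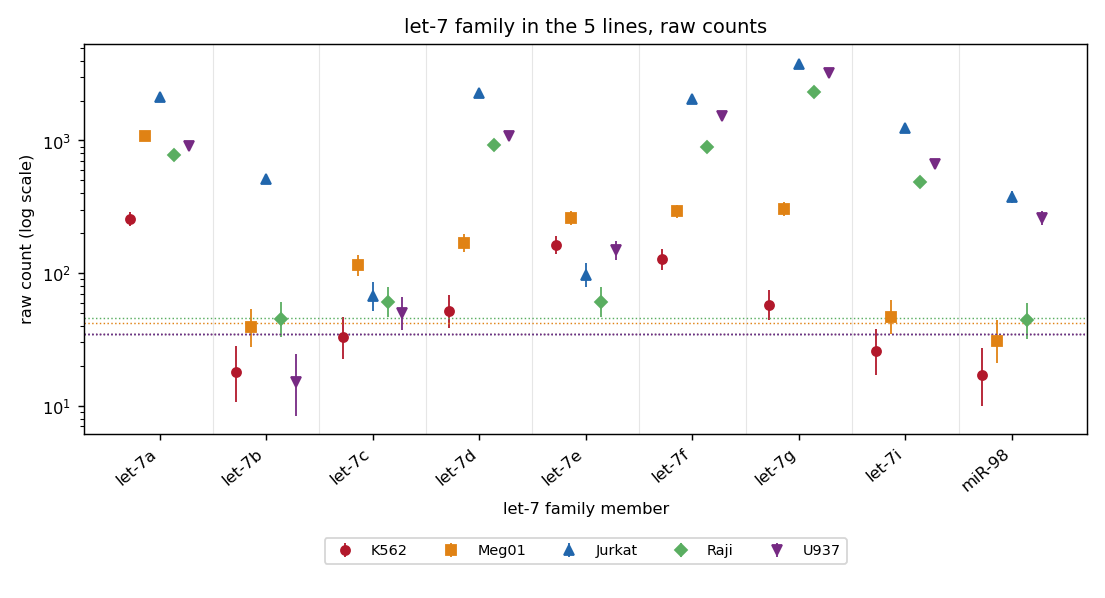
Raw counts (log axis) of the 9 let-7 family probes in the 5 lines, with 95% Poisson intervals and each line's background threshold in raw counts as a dotted line. K562 was the lowest line for 7 of the 9 (all but let-7b and let-7e), although let-7c, let-7i and miR-98 were below its background.

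The miR-17-92 cluster and its paralogues, miR-106a-363 and miR-106b-25, were abundant in K562. Their 11 probes made up 46.5% of the counts above background in K562 (46.2 to 46.8), against 28.7% in Meg01, 25.2% in Jurkat, 31.2% in Raji and 36.5% in U937. Of the 10 that entered the comparison, 8 were at least 2-fold higher in K562 than in Meg01, 6 than in Jurkat, 5 than in Raji and 3 than in U937, and none was 2-fold lower. Over all 186 miRNAs compared, 21.0%, 21.0%, 14.5% and 14.5% were higher, in the same line order. The counts of the group were 4, 0, 9 and 2 without scaling, 4, 0, 9 and 0 with scaling to the positive controls and 4, 3, 3 and 2 with scaling to the total count. Those over all 186 were 13, 20, 38 and 24 without scaling. They were 15, 20, 38 and 18 with the positive controls and 14, 29, 20 and 22 with the total count. The median log2 ratio was positive against every line and under every scaling, from 0.84 to 1.56 against Meg01, 0.65 to 1.25 against Jurkat, 0.65 to 1.30 against Raji and 0.16 to 0.82 against U937.

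miR-18a and miR-19a, which come from the chromosome 13 cluster alone, were the members called against all 4 lines. miR-18a had 225 raw counts in K562 and 96, 121, 69 and 84 in Meg01, Jurkat, Raji and U937, and in normalized counts it was 2.53-fold above Raji (1.92 to 3.36), the nearest line. miR-19a had 417 against 153, 221, 110 and 231, and it was 2.12-fold above U937 (1.80 to 2.50), the nearest line. K562 was the highest line for both. From the X chromosome cluster, miR-18b had 109 raw counts in K562, 53 in Meg01, 155 in Jurkat, 48 in Raji and 43 in U937. In normalized counts K562 was 3.39-fold above Meg01 (2.42 to 4.80), 1.76-fold above Raji and 2.97-fold above U937, and against Jurkat the log2 ratio was 0.09 and ran down to -0.51 with the scaling. miR-363 was below background in K562, with 31 raw counts, and above it in Jurkat alone, with 732. Probes that detect both a chromosome 13 and an X chromosome member, such as miR-20a+miR-20b and miR-106a+miR-17, cannot tell the 2 clusters apart.

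The third cluster, miR-106b-25 in MCM7, was uneven. miR-25 had 2380 raw counts in K562, 1126 in Meg01, 2664 in Jurkat, 1068 in Raji and 1560 in U937, whereas miR-106b had 374 in K562 and 485, 681, 319 and 394 in the others. In normalized counts miR-25 was highest in K562, by 1.36-fold over Jurkat, an order that did not hold without scaling (log2 -0.16). miR-106b was called against none of the lines. By seed, the family of miR-92a and miR-25 held 26.5% of the counts in K562 against 14.4% to 20.1% in the others, that of miR-17, miR-20 and miR-93 held 12.4% against 6.40% to 10.1%, and that of miR-19 held 7.56% against 3.77% to 6.38%.

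**Figure D5:**
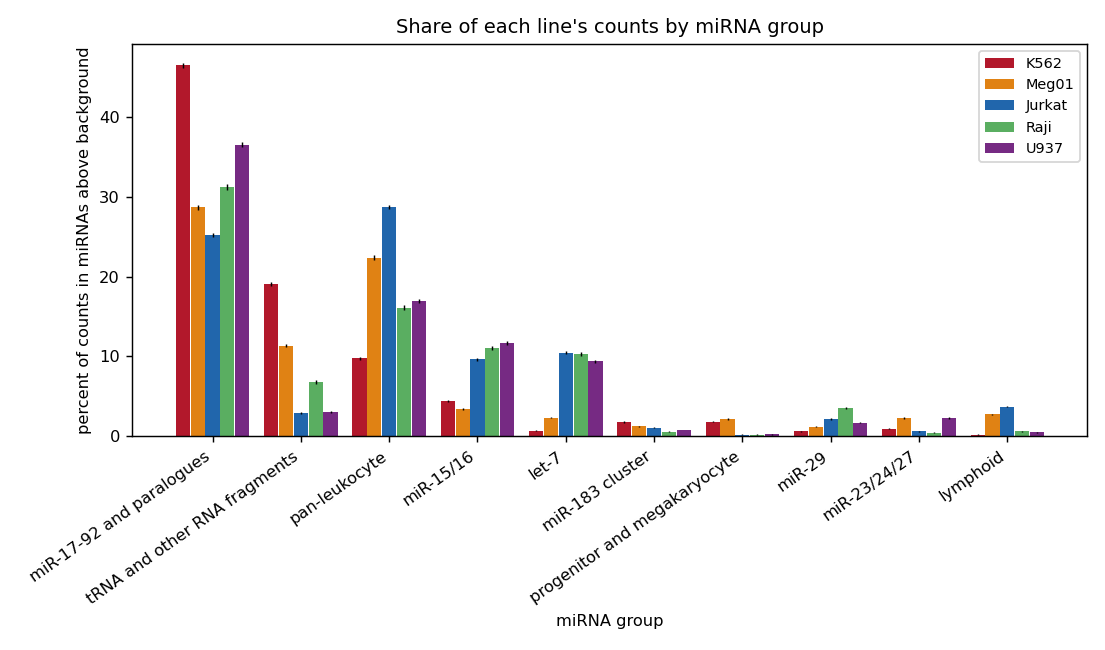
Share of each line's counts in miRNAs above background (percent) held by 10 groups of miRNAs, with exact binomial 95% intervals, 1 sample per line. K562 had the largest share of the miR-17-92 group, of the RNA fragments and of the miR-183 group, and the smallest of the pan-leukocyte, let-7, miR-29 and lymphoid groups, although miR-223 of the pan-leukocyte group was higher in K562 than in Jurkat and Raji.

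The largest ratios over the nearest line belonged to small RNAs that miRNA catalogs have since withdrawn or reassigned, among them fragments of tRNAs and of other RNAs. In raw counts miR-1274a had 2860 in K562, 1061 in Meg01, 172 in Jurkat, 137 in Raji and 89 in U937. It was 4.45-fold higher in K562 than in Meg01 (4.14 to 4.78), 25.2-fold than in Jurkat (21.6 to 29.6), 16.2-fold than in Raji (13.6 to 19.3) and 37.7-fold than in U937 (30.5 to 47.1). miR-1274b had 996 against 378, 107, 73 and 93, and its smallest ratio, over Meg01, was 4.35 (3.86 to 4.91). K562 was the highest line for both and Meg01 the next.

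miR-720 had 12331 raw counts in K562, 7308 in Meg01, 2469 in Jurkat, 3017 in Raji and 1382 in U937, and K562 was 2.78-fold above Meg01 (2.70 to 2.87). miR-1974 had 181 in K562 and 28 to 56 in the others, where it was above background in Meg01 alone, and miR-1979 had 489 against 93 to 266. Together the 14 probes of this group made up 19.1% of the counts above background in K562 (18.8 to 19.3), 11.3% in Meg01, 2.92% in Jurkat, 6.76% in Raji and 2.98% in U937. Of the 10 that entered, 7 were called higher than Meg01, 8 than Jurkat, 7 than Raji and 8 than U937, and 6 than all 4. Among all 186 miRNAs the shares called higher were 21.0%, 21.0%, 14.5% and 14.5%, in the same line order. Without scaling the count of the group against Meg01 was 3, and with the total count as scale it was 4. Its count against U937 was 5 with scaling to the positive controls or the total count. Of the 6, miR-1274a, miR-1274b and miR-1974 were the 3 called against all 4 lines under each of those scalings. The exception was miR-1246, with 289 in K562 and 1264 in Meg01, the 1 member called lower.

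The erythroid miRNAs were above background in K562 and also in Meg01, where miR-144 was higher. miR-144, the erythroid miRNA transcribed with miR-451, had 216 raw counts in K562 and 981 in Meg01, against 31 in Jurkat, 25 in Raji and 16 in U937. In normalized counts Meg01 was 2.75-fold above K562 (2.37 to 3.21), and the 3 other lines were below background. miR-451 had 59 raw counts in K562 and 129 in Meg01 against 13 to 19, and miR-486-3p had 143 and 138 against 16 to 35. All 3 probes were thus above background in K562 and in Meg01 and in none of the other lines, and together they made up 0.438% of the counts in K562 (0.397 to 0.482) and 1.27% in Meg01 (1.20 to 1.34). The sequences shown are those of the erythroid miRNA and of the pair of progenitor miRNAs described next.
miR-144: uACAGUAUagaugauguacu
miR-126: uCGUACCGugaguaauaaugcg
miR-10a: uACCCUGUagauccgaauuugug

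miR-126, encoded at chr9:136670602-136670686 within EGFL7 and known from endothelial cells, progenitors and megakaryocytes, had 1482 raw counts in K562 and 1954 in Meg01, against 99 in Jurkat, 31 in Raji and 96 in U937. In normalized counts K562 was 22.7-fold above Jurkat (18.5 to 28.2) and 18.1-fold above U937 (14.7 to 22.5), while its log2 ratio to Meg01 ran from -0.40 to 0.32 with the scaling. miR-10a, at chr17:48579838-48579947 within HOXB3, was highest in K562. It had 239 raw counts in K562, 91 in Meg01, 73 in Jurkat, 86 in Raji and 85 in U937, and its smallest ratio was 2.15 over Raji (1.68 to 2.79). miR-10b was at background in K562 with 28 counts, as was miR-130a in all 5 lines with 6 to 10, so of the 4 members of this group 2 were above background in K562.

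K562 and Meg01 parted in miR-125b, miR-99a and miR-15a. miR-125b had 36 raw counts in K562, close to its background, and 560 in Meg01, with 34 to 64 in the other lines. miR-99a, which is encoded beside let-7c, was below background in K562 with 30 counts and had 437 in Meg01. For both, Meg01 was the highest line and K562 lay with or below the others. miR-125a-5p, of the same seed as miR-125b, was instead close in both lines, with 350 raw counts in K562 and 500 in Meg01 against 38 in Jurkat, 14 in Raji and 92 in U937. Its log2 ratio in normalized counts was 0.21 over Meg01, down to -0.51 with the scaling, 3.81 over Jurkat and 2.16 over U937. miR-15a had 860 counts in K562 and 30 in Meg01, below background, against 1599 to 3746 in the other lines, so K562 lay between. Its partner miR-16 had 1308 in K562, 895 in Meg01 and 2234 to 4025 in the rest, and in normalized counts it was 2.03-fold higher in Jurkat than in K562 (1.90 to 2.16), 2.20-fold in Raji and 2.29-fold in U937. Against Raji it ran down to 1.71-fold with the scaling, and of the 5 members of the group that entered, 3 were called lower than Raji as reported and 0 without scaling or with the positive controls. The miR-15/16 seed family held 4.40% of the counts in K562, 3.39% in Meg01 and 9.52% to 11.6% in the lymphoid and monocytic lines. The miR-15a and miR-16-1 hairpins lie at chr13:50048973-50049201 within DLEU2, and miR-16 has a second locus on chromosome 3.

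Among lymphoid miRNAs, miR-181a, which tunes receptor signaling in developing lymphocytes, was lowest in K562. Its raw count was 64 in K562 (49.3 to 81.7), 2417 in Meg01, 2551 in Jurkat, 171 in Raji and 238 in U937. In normalized counts it was 22.9-fold higher in Meg01 (17.9 to 29.8), 26.2-fold in Jurkat (20.5 to 34.2), 3.45-fold in Raji (2.57 to 4.67) and 3.17-fold in U937 (2.40 to 4.25). K562 was the lowest line, Raji and U937 lay between, and Meg01 lay beside the T lymphoblastic line. miR-342-3p had 70 counts in K562 and 652 in Jurkat, its highest line, and miR-150 was at background in K562 with 20 counts. miR-150 was also below background in Meg01, Raji and U937, and above it in Jurkat alone, at 830 normalized counts. Of the 6 lymphoid probes 3 entered, and 2 were called lower than Meg01, 3 than Jurkat, 1 than Raji and 1 than U937. The shares called lower among all 186 miRNAs were 8.06%, 10.8%, 14.5% and 10.2%, in the same line order. With scaling to the total count 3 lymphoid probes were lower than Raji, and with scaling to the positive controls 2 were lower than U937. With let-7a, let-7d and let-7g, miR-181a, miR-9 and miR-29c were the lowest in K562 relative to the nearest line, and their sequences share no seed.
miR-181a: aACAUUCAacgcugucggugagu
miR-9: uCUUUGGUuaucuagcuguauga
miR-29c: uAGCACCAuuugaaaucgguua

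miR-9, known best from the nervous system, was below background in K562 with 31 raw counts and had 115 in Meg01, 573 in Jurkat, 157 in Raji and 240 in U937. With K562 entered at its threshold it was at least 2.01-fold higher in Meg01, a margin at the limit of the call. miR-29c had 130 counts in K562 and 507, 1989, 242 and 301 in the other lines, and it was 10.1-fold higher in Jurkat (8.43 to 12.1). The 3 miR-29 members made up 0.592% of the counts in K562 and 1.19% to 3.51% in the other lines. miR-29a, the most abundant of them in K562, had 380 raw counts there, 592 in Meg01, 451 in Jurkat, 1483 in Raji and 1040 in U937. Its normalized ratio was 1.06 over Meg01 (0.928 to 1.21) and 1.28 over Jurkat (1.11 to 1.47). With the scaling the ratio ran down to 0.642 over Meg01 and 0.843 over Jurkat. Of the 3 members, 1 was called lower than Meg01, 1 than Jurkat, 3 than Raji and 1 than U937. Among all 186 miRNAs the shares called lower were 8.06%, 10.8%, 14.5% and 10.2%, in the same line order. The miR-29 counts against Jurkat and U937 were 2 each without scaling and when the positive controls or the total count set the scale. miR-155 and miR-146a, both induced on immune activation, were below background in K562 with 32 and 34 counts, while Raji had 254 and 206 and U937 253 and 147. Low levels were not particular to K562. In normalized counts miR-146a was 41.6 in K562, 34.1 in Meg01 and 42.7 in Jurkat. For miR-155 the values were 39.1 in K562, 29.0 in Jurkat and 89.7 in Meg01. miR-222 was also below background in K562, with 29 counts, and its cluster partner miR-221 had 62 in K562 against 568 in Meg01, 220 in Jurkat, 355 in U937 and 17 in Raji, where it was below background.

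miR-21, widely raised in tumors, was intermediate, with 1588 raw counts in K562, 1486 in Meg01, 350 in Jurkat, 2643 in Raji and 673 in U937. miR-23a and miR-24, from a cluster on chromosome 19, had 165 and 196 in K562, against 597 and 1063 in Meg01 and 701 and 663 in U937. K562 thus lay below Meg01 and U937 for these miRNAs and above Jurkat and Raji, which had 90 and 25 for miR-23a and 130 and 27 for miR-24. miR-96, of the miR-183 cluster, was highest in K562, with 1549 against 1064 in Meg01, 1116 in Jurkat, 283 in Raji and 591 in U937, a ratio of 2.11 over Jurkat (1.95 to 2.28) that fell to a log2 ratio of 0.47 under the lowest scaling. miR-183 had 124 in K562, 151 in both Meg01 and Jurkat, 40 in Raji and 45 in U937, and its order against Meg01 and Jurkat turned with the scaling, with log2 ratios from -0.28 to 0.44 and from -0.28 to 0.32. miR-151-5p had 149 in K562 and 114, 57, 18 and 13 in the other lines, and miR-130b, which stood highest in K562 and next in Jurkat, had 391 against 83, 299, 77 and 104.

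The remaining groups gave few calls. None of the 5 miR-30 probes was called against Meg01, Jurkat or U937, and 3 were lower than in Raji, against 0 without scaling and 1 with scaling to the positive controls. miR-26a had 442 counts in K562 and 280 to 611 in the other lines, and none of the 3 MYC-repressed probes that entered, of 4, was called lower in K562, where miR-22 had 116 counts against 21 to 67 in the others and was called higher than in Meg01, Jurkat and U937. The call against Meg01 was lost without scaling, or when the positive controls or the total count set the scale, down to a log2 ratio of 0.79. Of the 54 probes of the DLK1-DIO3 region on chromosome 14, 8 were above background in K562, at 44.0 to 199 normalized counts, against 30 in Meg01. Of the markers of other tissues, at 44.0 to 114 normalized counts in K562, 2 of 7 epithelial, 2 of 5 liver and muscle, 8 of 39 primate chromosome 19 and 0 of 4 miR-371-373 probes were above its background, and none was called against any line, although with scaling to the total count 2 epithelial and 3 primate chromosome 19 probes were 2-fold lower than in Raji.

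K562 had 180 miRNAs above background, against 111 to 229 in the other lines. Of the 180 miRNAs above background in K562, 133 were above it in Meg01, 152 in Jurkat, 99 in Raji and 136 in U937. In K562 alone 17 were above background, at 42.8 to 127 normalized counts with a median of 50.1, so most lay close to the threshold of 42.3. The highest of them, named here after its values were seen, was miR-135b, with 104 raw counts against 15 to 27 in the other lines. The 6 miRNAs above background in the 4 others and not in K562 were let-7c, let-7i, miR-146a, miR-155, miR-222 and miR-9. Several of these also lay close to a threshold. K562 had 41.6 normalized counts of miR-146a, 40.4 of let-7c and 39.1 of miR-155. Jurkat passed for miR-155 with 29.0 against its threshold of 28.2, and Raji for miR-222 with 72.6 against 72.4.

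Counts over the human probes were 105224 in K562 and 66892 to 130048 in the other lines. Raji had the fewest and the highest threshold. Probes near background had similar raw counts in all lanes, and the ratio of the scaling factors, 1.65 for K562 over Meg01 and 0.775 over Raji, therefore carries into their ratios.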

How the data were processed

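For each line, the authors deposited the raw count of every nCounter probe as read by the instrument (753 probes, 654 of them for human miRNAs, 80 for virus miRNAs, 8 negative and 6 positive controls and 5 housekeeping mRNAs). The deposited signal of the human probes, after the authors' background subtraction, served as an alternative. The methods name 2 kit versions, and which version each file used is not given in the sources used here. Each line was scaled by the geometric mean over the 100 miRNAs with the largest average count. The threshold was the mean plus 2 SD of the 8 scaled negative controls. The study subtracts this threshold, whereas here values above it were kept and values below it were entered at the threshold, with subtraction as an alternative. Calls need a ratio of at least 2.

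Total counts over the human probes were 66892 to 130048, and the count behind a value sets its interval. No test was made with 1 sample per line. The members, gene lists and named miRNAs were chosen with earlier results of these data known. Named were the 10 most abundant miRNAs of K562, the 12 highest and 12 lowest relative to the nearest line, the 3 largest ratios per line and direction, and list members. Probe names were matched to mature sequences in RefSeq (GRCh38.p14) for 456 of the 654 probes and 141 of the 186 compared, with the arm taken from the study's list of miRNA names and, for a few probes, by hand.

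The calculations (numpy 2.4.6, scipy 1.17.1, pandas 2.3.3, matplotlib 3.10.9) were tested on simulated counts. The first run missed the criterion for the coverage of the Poisson interval. The criterion, not the calculation, was then widened by its sampling error. In the simulation, scaling was biased when many probes changed in 1 line. Alternatives were no scaling, the 100 highest of each line, positive controls or total count for scaling, the mean or highest of the negative controls or a raw count of 30 as threshold, subtraction, the deposited signal, Raji left out, a 3-fold limit, and only the miRNAs above background in all 5 lines.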

Additional observations from a re-analysis of the deposited data

Results flagged for a closer look

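The panel also holds 80 probes for virus miRNAs, which entered no comparison. In K562, 10 of them were above its background threshold, against 8 in Meg01, 17 in Jurkat, 19 in Raji and 13 in U937. A single one was above background in K562 alone, hsv1-miR-H8 with 47 raw counts against 24 to 29 in the other lines. The highest of the 10 in K562, ebv-miR-BART16, had similar raw counts in all lines. They were 316 in K562, 346 in Meg01, 338 in Jurkat, 329 in Raji and 249 in U937. These lines hold no control sample, and a background of the probes themselves was not tested.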

How the results depend on the processing

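The numbers of calls depended on scaling, threshold and subtraction, and of the recomputed numbers 42 moved by more than 1.5 times and 76 did not. They are given below as higher and lower in K562 against Meg01, Jurkat, Raji and U937 in that order, with the reported 39, 39, 27 and 27 higher and 15, 20, 27 and 19 lower. Without scaling they were 13, 20, 38 and 24 higher and 26, 29, 11 and 22 lower, with 6 higher and 6 lower than all 4 lines. With scaling to the positive controls they were 15, 20, 38 and 18 higher and 25, 29, 12 and 37 lower, again with 6 and 6. With scaling to the total count they were 14, 29, 20 and 22 higher and 25, 24, 52 and 24 lower, with 4 higher and 7 lower than all 4. With the 100 highest of each line, 7 were higher than all 4. With the mean of the negative controls as threshold they were 84, 54, 34 and 37 higher and 27, 24, 56 and 22 lower. With subtraction they were 53, 47, 39 and 49 higher and 59, 65, 90 and 67 lower, where a value just above the threshold becomes small by construction while one below it is entered at the threshold. A 3-fold limit left 15, 20, 15 and 20 higher and 6, 10, 11 and 11 lower, with 3 higher and 2 lower than all 4. Over the miRNAs above background in all 5 lines they were 24, 18, 16 and 14 higher and 6, 12, 19 and 8 lower. Without Raji, 17 were higher than the 3 other lines. The highest negative control, a raw minimum of 30 and the deposited signal kept every number within 1.5 times. Of the recomputed ratios of named miRNAs over the highest or lowest other line or the line that named them, 409 stayed within the counting interval, 186 moved and 1 of at least 2-fold turned, miR-21 over the highest other line, which was 0.82 on the log2 scale without Raji, its highest line. Among the recomputed values of the ratios under 2-fold, 9 of 163 also changed sign, in 5 ratios. With scaling these were miR-25 over the highest other line, from 0.44 to -0.16 without scaling, and miR-19b, from 0.64 to -0.02 with the positive controls. With subtraction and the deposited signal they were let-7c, miR-222 and miR-181b+miR-181d over the lowest other line. Over the scalings alone, 105 of 368 ratios of named or listed miRNAs to a single line changed sign, 0 of them at least 2-fold as reported. The cause of the other changes was not tested.

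Each line has 1 sample, and the spread between cultures is unknown. Low counts limit the ratios of miRNAs near background, where K562 gives only a bound. No paired analysis was possible because each line holds a single sample and no test was made.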
